A study of Loxodonta africana with 12 samples.

Results

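RNA was sequenced from blood cells of the African elephant (Loxodonta africana) that had received 2 Gy of ionizing radiation, and the libraries of the 24 h time point were compared with those of the 5 h time point. The 6 irradiated libraries, 3 at 5 h and 3 at 24 h, were chosen by their labels out of 12 in the series. The other 6 libraries are untreated cells, 3 at each time, and they show what changed over the same hours without irradiation. The labels name blood as the source and give no genotype, age or sex. They do not say which blood cells were kept, how they were cultured, or whether replicates are separate animals, blood draws or cultures, so a p-value here reflects only how far these libraries spread, and that spread may be technical.

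Ionizing radiation breaks DNA, and the kinase ATM signals the breaks to p53. The p53 protein then switches on genes that halt the cell cycle (CDKN1A), start apoptosis (BAX) and restrain p53 itself (MDM2). B lymphocytes are known as one of the most radiation-sensitive cell types of blood. Monocytes kept outside the body attach to plastic and mature toward macrophage or dendritic cell states over hours to days, with or without radiation.

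The irradiated libraries held 31129422 to 38138163 counts at 5 h and 18022475 to 23805619 at 24 h, over the same 16406 genes. The 2 times were deposited as separate tables, so time and table cannot be told apart. With all irradiated libraries thinned to the smallest, 4495 genes were called higher and 3930 lower at 24 h, of which 4245 and 3919 were called without thinning. Levels are counts-per-million values (CPM), scaled by TMM over all 12 libraries. Low values were higher at 24 h. The 5th percentile of CPM over all genes, here without TMM scaling, was 0.0269 to 0.0524 in irradiated libraries at 5 h and 0.166 to 0.264 at 24 h. The number of genes with a count went from 15970 to 16094 up to 16287 to 16371. The part of this shift in rises of rarely counted genes was not tested. Blood genes were present in the irradiated libraries: the T cell receptor subunit CD3E stood at 37.8 to 58.8 CPM, the platelet integrin ITGA2B at 16.4 to 36.3 CPM and the erythroid enzyme ALAS2 at 1.04 to 12.9 CPM. CD14, LYZ and HBB were not analysed here. In bulk RNA, fewer cells of a type and less RNA per cell cannot be told apart, which holds for every marker below. The fibroblast collagen gene COL1A1 was at 0.19 to 0.373 CPM at 5 h and 1.18 to 1.75 CPM at 24 h.

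Most genes changed between the times. Of 14028 genes tested, edgeR called 4956 higher at 24 h (35.3%) and 4293 lower (30.6%), at a Benjamini-Hochberg adjusted p below 0.05. A change of more than 1 on the log2 scale was called for 3065 genes in the higher direction (21.8%) and 1472 in the lower direction (10.5%). The ranges of the 2 groups of 3 did not overlap for 9902 genes (70.6%). The median log2 fold change over all genes was 0.10. Among the 9526 genes with a mean of at least 5 CPM, 2562 were higher and 3908 lower, with a median of -0.15, so falls outnumbered rises once rarely counted genes were set aside. The first principal component held 65.9% of the variance over all 12 libraries and separated the 2 times.

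Most of the change was also seen in cells that were not irradiated. In untreated libraries 4383 of 13445 genes were higher at 24 h (32.6%) and 4107 lower (30.5%). Of 13223 genes tested in both, 3406 were called higher in both, which is 80.1% of the rises in irradiated and 78.6% of those in untreated libraries. Another 3656 were called lower in both, 85.3% of the falls in irradiated and 89.1% of those in untreated libraries. Across genes, which are not independent replicates, the log2 changes had a Pearson correlation of 0.92, and the 2 comparisons share no library. The change over time itself differed between irradiated and untreated libraries, by the interaction term over all 12 libraries, for 134 of 15200 genes. In 19 of them the irradiated change was the more positive (0.125%) and in 115 the more negative (0.757%). These counts depended on single libraries. Leaving out 1 library at a time gave 72 to 117 negative calls, with over 1.5 times fewer than 115 without irradiated 5 h replicate 2 (72), irradiated 5 h replicate 3 (76), untreated 5 h replicate 1 (73) or untreated 24 h replicate 1 (72). The positive calls ran from 4 without irradiated 5 h replicate 2 to 51 without untreated 24 h replicate 2, and moved by over 1.5 times without any library other than irradiated 24 h replicate 1 (24). DESeq2 called 80 positive and 282 negative.

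**Figure D1:**
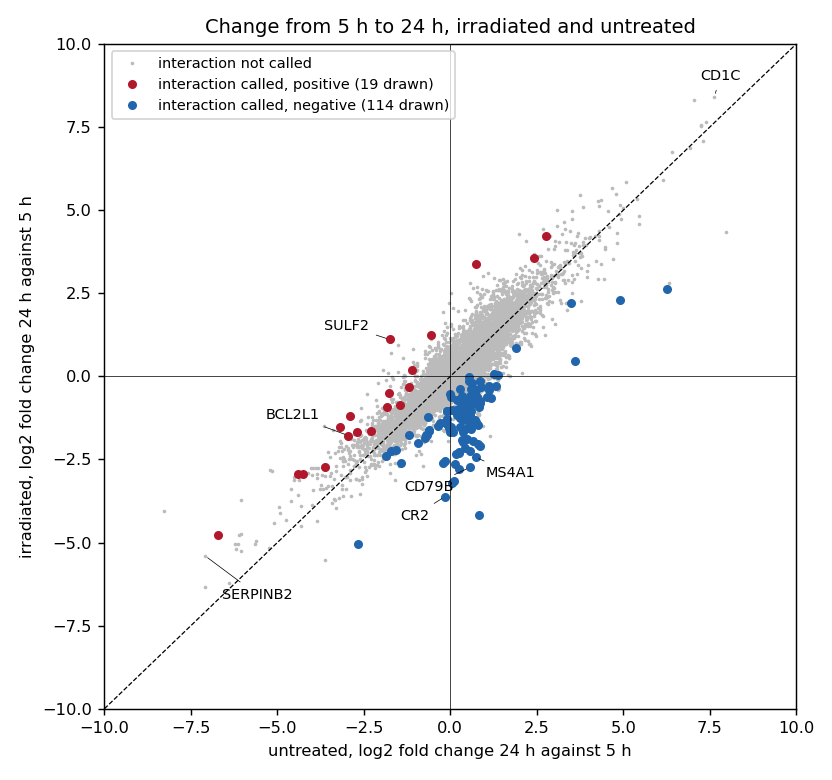
Each point is 1 gene tested in both comparisons, with its log2 fold change from 5 h to 24 h in untreated (x axis) and irradiated libraries (y axis). The dashed line marks equal change. Filled points are genes called for the interaction, and 1 of the 115 negative ones is not marked as such. Most genes lie along the line, while the B cell genes MS4A1, CD79B and CR2 lie far below it, with irradiated changes of -2.43, -2.74 and -3.62.

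The 12 largest rises included lipid antigen presentation, complement and lipid metabolism genes. CD1C, which presents lipid antigens on dendritic cells (ENSLAFG00000001869, assembly L_africana_Jul_2009, scaffold 33, 6823490 to 6922095, plus strand), stood at 0.253, 0.336 and 0.276 CPM at 5 h and at 152, 73.6 and 59.9 CPM at 24 h. All 3 libraries of 24 h lie far above all 3 of 5 h. Its log2 fold change was 8.41 ± 0.49 (SE, edgeR adjusted p = 4.5e-06), against 7.63 in untreated libraries. The related CD1E went from 0.222, 0.298 and 0.276 to 55, 47.4 and 45.1 CPM (7.57 ± 0.18). C1R, the protease that starts the classical complement cascade, went from 0.112 to 0.307 CPM up to 38.5 to 43.7 CPM (7.64 ± 0.22). The secreted phospholipase PLA2G2D rose by 6.76 ± 0.32 and the glutamate transporter SLC1A2 by 5.17 ± 0.23. CYP1A1, the enzyme known as the main target of the aryl hydrocarbon receptor, had 2.66, 2.83 and 8.17 CPM at 5 h and 225, 151 and 147 CPM at 24 h (5.31 ± 0.44, adjusted p = 2.4e-05).

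In 2 of the 12 genes with the largest rises, 1 library held most of the signal. The chemokine CCL17 was at 0.127, 0.0746 and 0.614 CPM at 5 h and at 253, 6.04 and 1.37 CPM at 24 h (8.30 ± 2.10, adjusted p = 0.0076). CYP24A1, which breaks down vitamin D, had 40.2 CPM in irradiated 24 h replicate 1 and 4.34 and 3.15 CPM in the other 2 (5.86 ± 1.21). The 4 not yet given were the granin CHGB (7.52), the oxidase ENOX1 (7.08), the RNA-binding CPEB1 (5.92) and the phospholipase PLCB1 (5.27). For all 12 the untreated log2 change was also positive, from 4.26 for PLCB1 to 7.63 for CD1C, and edgeR called the interaction in 0 of 12 (1 at an unadjusted p below 0.05, 0 by DESeq2).

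The 12 largest falls included genes of fibrinolysis, vascular tone and the matrix. SERPINB2, an inhibitor of plasminogen activators (ENSLAFG00000008537, scaffold 4, 36031231 to 36041297, minus strand), stood at 1320, 776 and 1860 CPM at 5 h and at 24, 31.2 and 35.9 CPM at 24 h, 41.9 times lower in the fit (-5.39 ± 0.34, adjusted p = 6.9e-06). The endothelin precursor EDN1, a vasoconstrictor peptide, went from 116, 83.1 and 260 to 7.18, 2.6 and 3.4 CPM (-5.04 ± 0.53). TIMP1, which inhibits matrix metalloproteinases, fell from 182, 204 and 222 to 14.2, 11.5 and 12.4 CPM (-3.94 ± 0.13). The membrane protein EMP1 fell by 5.05 ± 0.24, the calcitonin gene CALCA by 6.22 ± 0.37, the hyaluronan synthase HAS2 by 4.36 ± 0.13 and the prostacyclin receptor PTGIR by 3.91 ± 0.21. Of the 12 largest falls, the remaining 5 were C1QL2 (-6.35), the collagen COL15A1 (-4.77), PHOSPHO1 (-4.41), C1orf162 (-4.31) and IQSEC3 (-4.12). The ranges of the groups did not overlap in any of these 24 genes, by the naming rule. All 12 falls were also negative in untreated libraries, from -7.10 for C1QL2 and SERPINB2 to -3.85 for HAS2.

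**Figure D2:**
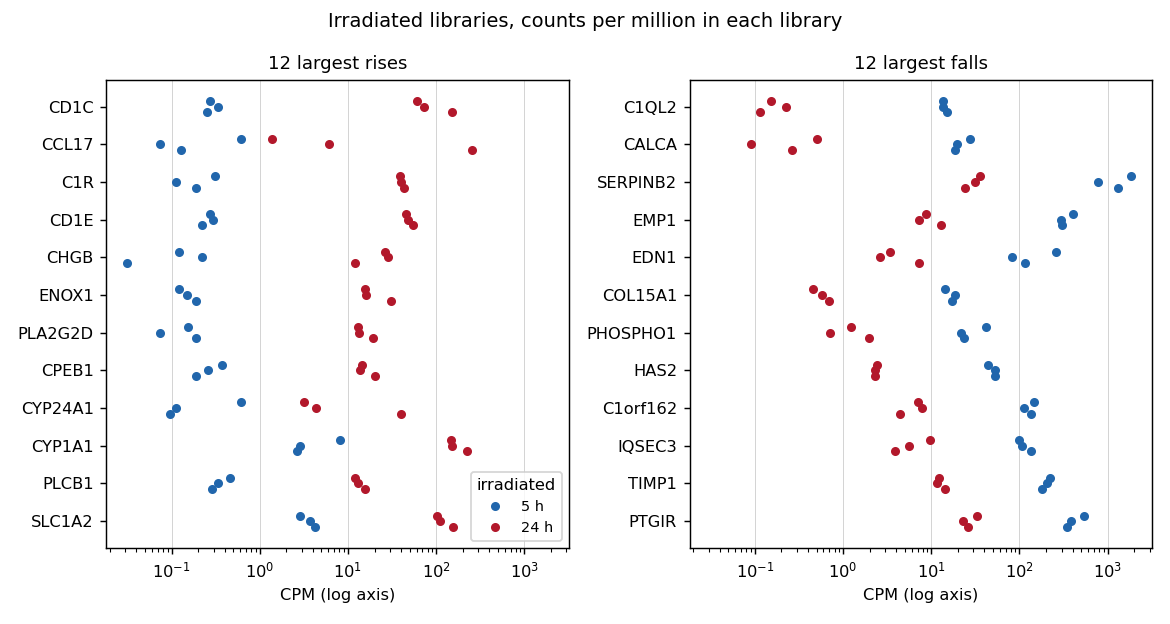
CPM on a log axis in the 3 irradiated libraries of 5 h (blue) and of 24 h (red), for the 12 genes with the largest log2 rises and the 12 with the largest falls. CD1C goes from 0.253 to 0.336 CPM up to 59.9 to 152 CPM, SERPINB2 from 776 to 1860 CPM down to 24 to 35.9 CPM, and the 24 h values of CCL17 spread from 1.37 to 253 CPM.

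Measured in CPM rather than in fold, the 8 largest gains included proteases and an oxidase subunit of phagocytes, and the 8 largest losses included genes of the actin cytoskeleton. The protease CTSS went from 890, 826 and 852 to 3990, 2870 and 2840 CPM and the NADPH oxidase subunit CYBB from 1020, 1010 and 739 to 4290, 3690 and 3300 CPM. The asparaginyl protease LGMN went from 114, 123 and 120 to 1700, 1010 and 1040 CPM, and complement C2 from 246, 257 and 201 to 1110, 1150 and 1160 CPM. In each of these the lowest library of 24 h exceeds the highest of 5 h. The integrin ITGAM (1.07 ± 0.15) and the chaperone CALR (0.69 ± 0.12) also rose. On the other side, the actin crosslinker FLNA fell from 3980, 4480 and 4210 to 649, 797 and 1060 CPM (-2.28 ± 0.18), nonmuscle myosin MYH9 from 4880, 4970 and 4230 to 1260, 1850 and 1880 CPM, and talin (TLN1), which links integrins to actin, by 1.29 ± 0.11. CIAS1, an older symbol of the inflammasome sensor NLRP3, fell from 3050, 2950 and 3520 to 1010, 836 and 847 CPM (-1.76 ± 0.14), and FGL2 by 2.55 ± 0.21. LCP1 (-1.14), ENO1 (-1.50) and the NF-kB restraint TNIP1 (-1.92) complete the 8 largest losses.

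Several stress genes rose to different levels in the 3 libraries of 24 h. The cochaperone DNAJB1 was at 216, 186 and 233 CPM at 5 h and at 594, 962 and 1810 CPM at 24 h, the heat shock gene HSPA1L at 8.8, 9.36 and 11.3 and then 44.7, 83.5 and 121 CPM, and the AP-1 subunit JUN at 516, 379 and 439 and then 631, 1070 and 1780 CPM. In these 3 genes irradiated 24 h replicate 3 is the highest and replicate 1 the lowest of its group, and the groups do not overlap. The cochaperone BAG3 had another order, with 0.475, 0.485 and 0.399 CPM at 5 h and 7.02, 2.42 and 3.15 CPM at 24 h (3.27 ± 0.45), replicate 1 being the highest. Reads of HSPA1L may be shared with other HSP70 genes of very similar sequence. PPP1R15A, which reverses the translation block of the stress response, had 1290, 958 and 1300 CPM at 5 h and 1290, 2100 and 2980 CPM at 24 h (0.90 ± 0.27, adjusted p = 0.017). Its ranges overlap, and its call was lost without irradiated 5 h replicate 2, irradiated 24 h replicate 2 or irradiated 24 h replicate 3 (adjusted p up to 0.08). Of 27 immediate early and stress genes tested, 10 rose and 10 fell (37.0% each, near the 35.3% and 30.6% of all genes). The MAP kinase phosphatase DUSP6 fell by 2.36 ± 0.12 and the G protein regulator RGS1 rose by 2.95 ± 0.15. Of 29 heat shock and chaperone genes, 6 rose (20.7%) and 16 fell (55.2%), with a median of -0.53. The falls included the cytosolic chaperonin subunits CCT3 (-1.51), CCT5 (-1.56) and CCT8 (-1.64).

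The machinery that makes ribosomes fell as a group. Of 48 genes of ribosome biogenesis and ribosomal RNA transcription tested, 46 fell (95.8%, against 30.6% of all genes) and 1 rose (2.1% against 35.3%). Of the falls, 37 were by more than 1 on the log2 scale, which 10.5% of all genes were. The median was -1.73 against 0.10 over all genes. The summed level of the list was 7320 to 8220 CPM at 5 h and 2390 to 2580 CPM at 24 h. BYSL, needed for the small subunit, fell from 68.3, 75 and 67.5 to 7.33, 7.83 and 8.63 CPM (-3.09 ± 0.11, adjusted p = 1.4e-06). The nucleolar GTPase GNL3 fell by 3.08 ± 0.14, HEATR1 by 2.57 ± 0.11 and the polymerase I factor RRN3 by 2.35 ± 0.09. The 1 rise was of TCOF1, a nucleolar scaffold (0.73 ± 0.11), chosen after its value was seen. In untreated libraries 44 of 48 fell, against 30.5% of all genes there, with a median of -1.43. By the interaction, edgeR called 1 of 48 and DESeq2 called 8. At an unadjusted edgeR p below 0.05, 25 were lower and 0 higher. The nucleolar helicase DDX21 was called for the interaction (-0.58, adjusted p = 0.049), which did not hold with DESeq2 size factors, with no filter, with the replicate block or without any library other than irradiated 24 h replicate 1 (adjusted p up to 0.18). Of 52 cytosolic ribosomal protein genes, 44 fell (84.6% against 30.6%) and 1 rose (1.9% against 35.3%). Of the falls, 2 were by more than 1 on the log2 scale (median of the list -0.53). RPL4, a protein of the large subunit, went from 2450, 2630 and 2610 to 1230, 1090 and 1080 CPM (-1.12 ± 0.11). In untreated libraries 25 of 52 fell, against 30.5% of all genes there (median -0.28). For the interaction edgeR called 0 of 52, with 1 higher and 27 lower at an unadjusted p below 0.05, and DESeq2 called 6. Ribosomal protein genes have many near-identical copies, so single values are uncertain.

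**Figure D3:**
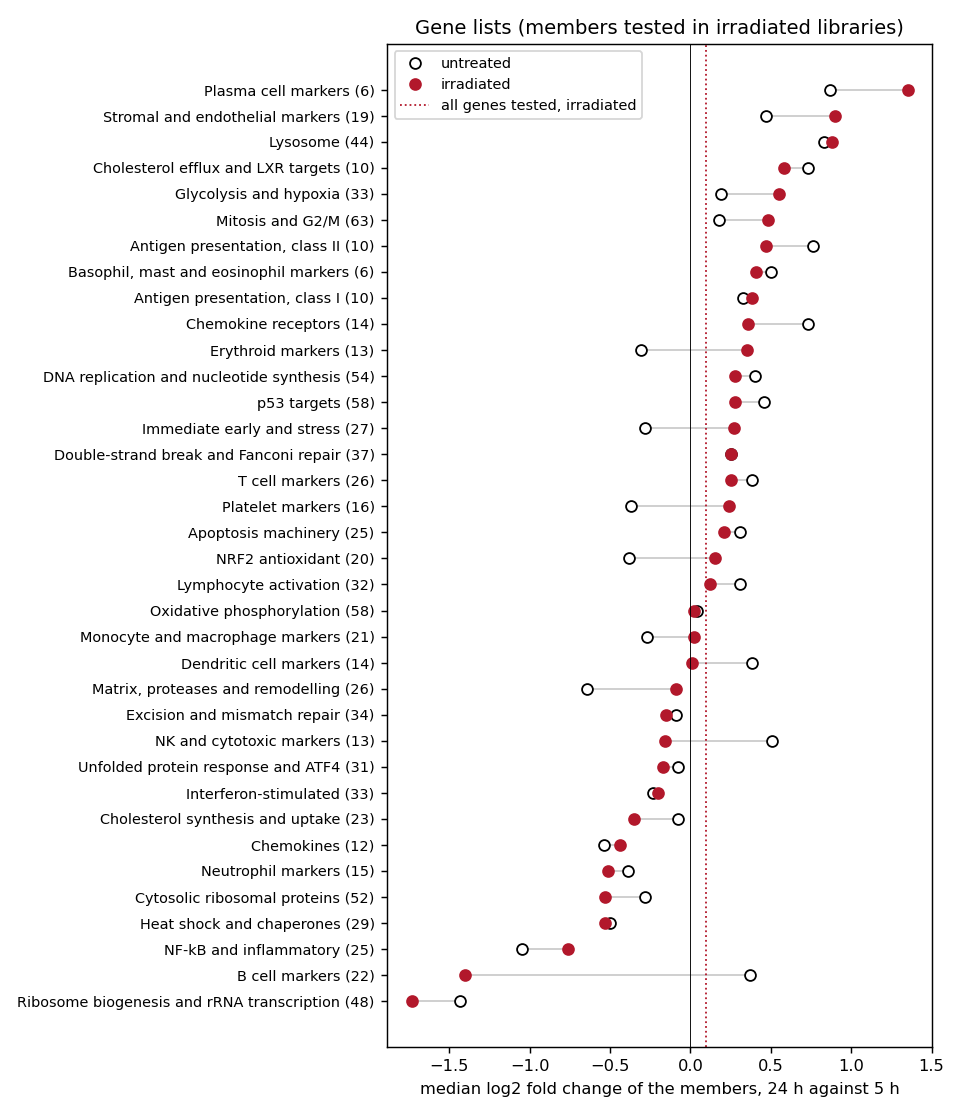
Median log2 fold change from 5 h to 24 h over the members of each gene list in irradiated (filled) and untreated libraries (open), with the number of members tested in irradiated libraries in brackets; the dotted line is the median of all genes tested, 0.10. Ribosome biogenesis has the lowest irradiated median at -1.73, and B cell markers have the widest gap, -1.40 against 0.37.

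Of 44 lysosomal genes tested 27 rose, 4 fell and 13 were not called (61.4% rose, against 35.3% of all genes), 18 of the rises by more than 1 on the log2 scale (median 0.88; 0.83 in untreated libraries). The ganglioside activator GM2A rose from 14.2, 16.6 and 15 to 158, 137 and 127 CPM (3.26 ± 0.13), the ceramidase ASAH1 by 2.99 ± 0.16, the acid glucosidase GAA by 2.60 ± 0.17 and the acid lipase LIPA by 2.23 ± 0.26. The falls included the sphingolipid activator PSAP (-1.01 ± 0.16), the transcription factor of lysosomal genes TFEB (-1.16 ± 0.14) and CD63 (-0.60). Of 23 genes of cholesterol synthesis and uptake, 12 fell and 3 rose (median -0.35). Of 10 genes of cholesterol efflux and LXR targets, 6 rose (60.0%), among them APOE, the lipid carrier, from 2.4, 3.32 and 2.92 to 48.9, 46.6 and 55.2 CPM (4.18 ± 0.15). The 1 that fell was the cholesterol exporter ABCG1 (-1.20 ± 0.18).

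Energy metabolism moved in parts. Of 33 genes of glycolysis and hypoxia, 18 rose and 6 fell (54.5% and 18.2%, against 35.3% and 30.6% of all genes; median 0.55; 0.19 in untreated libraries). Their summed level was lower at 24 h, at 12900 to 13100 CPM and then 10200 to 11100 CPM. Aldolase C (ALDOC) rose by 2.41 ± 0.11 and PFKFB4, which sets the rate of phosphofructokinase, by 2.35 ± 0.14. The hypoxia transcription factor HIF1A fell from 1510, 1230 and 1430 to 569, 423 and 369 CPM (-1.56 ± 0.18). Of 58 genes of oxidative phosphorylation, 11 rose (19.0%) and 13 fell (22.4%), both below the shares of all genes, with a median of 0.02. The summed level of this list was lower at 24 h, at 5110 to 5270 CPM and then 3700 to 4620 CPM. Of 20 NRF2 antioxidant genes 4 rose and 2 fell, and of 31 genes of the unfolded protein response 8 rose and 11 fell (median -0.17).

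Most inflammatory genes of the NF-kB list fell. Among 25 of them 16 fell (64.0%, against 30.6% of all genes) and 1 rose (4.0% against 35.3%). The median was -0.76, and -1.05 in untreated libraries, where 19 fell. NFKB1, a DNA-binding subunit of NF-kB, went from 1480, 1490 and 1490 to 504, 413 and 457 CPM (-1.64 ± 0.12), and the feedback inhibitor TNFAIP3 fell by 1.35 ± 0.15. The cytokine IL6 fell from 41.7, 37.3 and 56.1 to 6.15, 11.2 and 13.4 CPM (-2.09 ± 0.27), against -1.85 in untreated libraries. TNF was not called, at 859, 776 and 976 CPM and then 577, 1060 and 1660 CPM (0.39 ± 0.31, adjusted p = 0.3). The 1 rise was of IER3, an early response gene (1.30 ± 0.31). Of 12 chemokines 6 fell, among them the monocyte attractant CCL2 (342, 308 and 453 to 66, 40.2 and 49.7 CPM, -2.76 ± 0.21), and 4 rose, among them CCL22 (5.50 ± 0.61). Among 14 chemokine receptors, CCR7, which guides cells to lymph nodes, rose from 80.9, 91.3 and 148 to 538, 271 and 285 CPM (1.83 ± 0.31) and CXCR4 by 1.58 ± 0.17. In all, 5 receptors rose (35.7%) and 3 fell (21.4%), and CXCR3 was called for the interaction (-1.19, adjusted p = 0.029, up to 0.087 over the alternatives). Of 33 interferon-stimulated genes 10 fell (30.3%, near the 30.6% of all genes) and 1 rose (3.0% against 35.3%), with a median of -0.20. IFIT5 fell by 2.76 ± 0.27 and OAS3 by 1.12 ± 0.18, and BST2, which tethers virus particles, rose by 1.79 ± 0.21.

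Targets of p53 did not move together between 5 h and 24 h. Of 58 tested, 24 rose (41.4%) and 11 fell (19.0%), against 35.3% and 30.6% of all genes, with a median of 0.28 against 0.10. MDM2, the ubiquitin ligase that degrades p53 (ENSLAFG00000005885, scaffold 2, 59036999 to 59064440, plus strand), was at 1340, 1170 and 1040 CPM at 5 h and 847, 777 and 790 CPM at 24 h, 1.42 times lower in the fit (-0.50 ± 0.13, adjusted p = 0.0071). Its untreated means fell from 188 to 125 CPM (-0.55), and the interaction was 0.03 (adjusted p = 0.99). All 3 irradiated libraries of 24 h stayed above the untreated mean of either time. The death effector BAX rose from 87.1, 88.4 and 85.3 to 120, 119 and 132 CPM (0.56 ± 0.09, adjusted p = 6.1e-04), against 23.9 to 40.3 CPM in untreated means (0.79). Cyclin G1 (CCNG1) was at 360 to 377 CPM and then 337 to 365 CPM (-0.03 ± 0.09, adjusted p = 0.81). RPS27L, a ribosomal protein paralog, was at 307 to 337 CPM and then 332 to 377 CPM (0.18 ± 0.10, adjusted p = 0.14), and PHLDA3, which restrains AKT, at 24.2 to 32.1 CPM and then 19.1 to 38.3 CPM (0.04 ± 0.23). The groups overlap in these 3 genes. ATM, upstream of p53, had 236 to 250 and 231 to 244 CPM (0.02 ± 0.09).

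CDKN1A, which as p21 blocks cyclin-dependent kinases (identifier ENSLAFG00000009778 on scaffold 0, 128580859 to 128583266, minus strand), was at 540, 568 and 535 CPM at 5 h and at 433, 317 and 361 CPM at 24 h (-0.51 ± 0.13, adjusted p = 0.0082). Untreated means went from 217 to 61.8 CPM (-1.77), so the fall was smaller in irradiated libraries by the interaction (1.24, adjusted p = 0.034). That call was lost without irradiated 5 h replicate 1, 2 or 3, irradiated 24 h replicate 1 or 3, untreated 5 h replicate 2 or 3, or untreated 24 h replicate 1 or 3 (adjusted p up to 0.1). TP53INP1, which links p53 to autophagy and death, had 199, 171 and 152 CPM and then 119, 149 and 136 CPM (-0.31 ± 0.13, adjusted p = 0.061; called in 8 of 13 alternatives, from 0.015 to 0.17), while its untreated means rose from 26.4 to 47.6 CPM. Its interaction was -1.22 (adjusted p = 0.0039), with no call lost in any alternative. CDKN1A and TP53INP1 were the 2 p53 targets that edgeR called for the interaction, out of 58, against 134 of 15200 genes. At an unadjusted edgeR p below 0.05, 3 were higher and 7 lower, and DESeq2 called 5. The DESeq2 calls included 3 that edgeR did not make, for PHLDA3 (edgeR -1.66, adjusted p = 0.12), CCNG1 (-0.45, 0.12) and the nuclease AEN (0.85, 0.089).

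Other p53 targets rose in both kinds of library. The damage sensor DDB2 went from 19.7, 21.9 and 20 to 44.7, 42.6 and 47.5 CPM (1.19 ± 0.10; 1.12 in untreated), CCNG2 by 0.97 ± 0.09, CYFIP2 by 1.45 ± 0.10 and ZMAT3, an RNA-binding protein, by 0.75 ± 0.15. The kinase PLK2 went from 577, 375 and 536 to 777, 1240 and 2070 CPM (1.51 ± 0.32) and GADD45A from 33.2, 23.1 and 27.7 to 38.3, 62.7 and 91.9 CPM (1.25 ± 0.28). In both, irradiated 24 h replicate 3 is highest and replicate 1 lowest, the order also given for DNAJB1 and JUN. The nuclease AEN fell by 0.40 ± 0.13 (adjusted p = 0.021, lost with the stricter filter or without irradiated 5 h replicate 1, up to 0.056), and the ubiquitin ligase subunit FBXW7 by 1.22 ± 0.08.

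**Figure D4:**
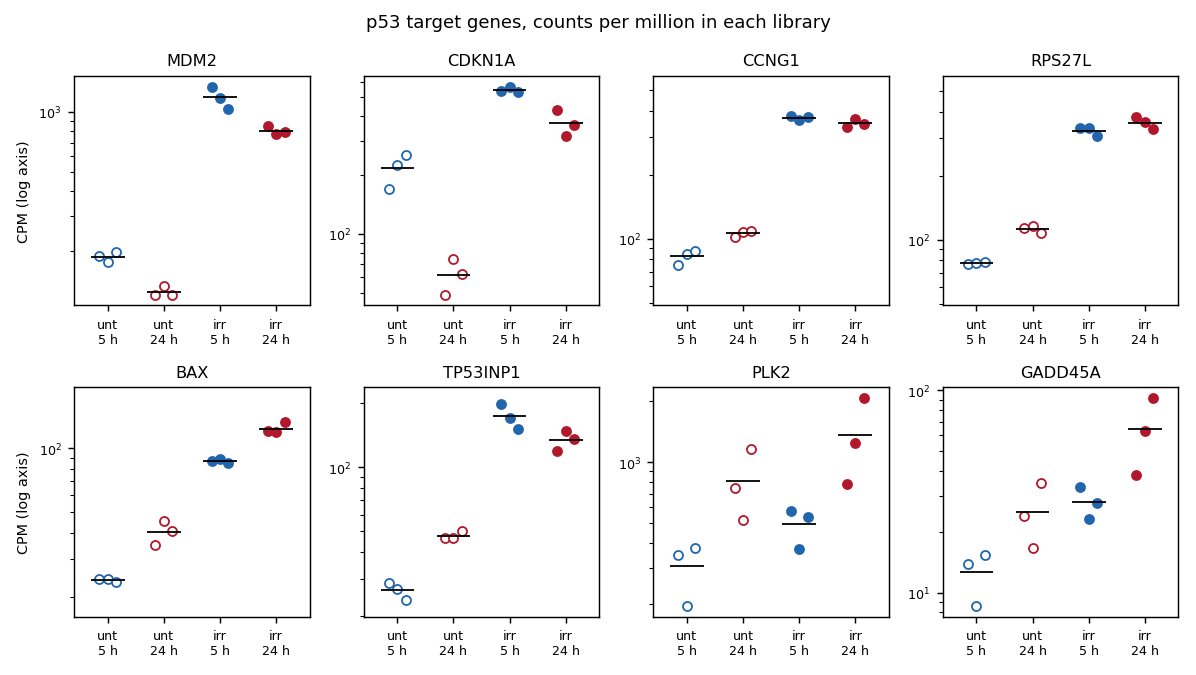
CPM on a log axis for 8 p53 target genes in each untreated (open) and irradiated (filled) library at 5 h (blue) and 24 h (red), with bars at the group means. MDM2 (1040 to 1340 and 777 to 847 CPM), CCNG1 and RPS27L stay well above the untreated libraries at both times, whereas CDKN1A in untreated libraries falls from a mean of 217 to 61.8 CPM.

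Of 25 genes of the apoptosis machinery, 11 rose and 11 fell (44.0% each, against 35.3% and 30.6% of all genes). The initiator caspase CASP9 rose from 9.71, 9.36 and 8.94 to 40.1, 36.2 and 39.9 CPM (2.11 ± 0.11), as did BMF, a BH3-only inducer of death (1.48 ± 0.12). BCL2L1, the gene of the antiapoptotic protein BCL-XL (ENSLAFG00000002011, scaffold 19, 31017903 to 31018830, minus strand), fell from 210, 181 and 166 to 57.2, 46.6 and 52.2 CPM (-1.78 ± 0.12, adjusted p = 1.1e-05). Its untreated means fell further, from 94.1 to 11.8 CPM (-2.95), and the interaction was 1.16 (adjusted p = 0.0039), called in every alternative tried. The death receptor FAS was not called (-0.18 ± 0.20, adjusted p = 0.45).

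B cell genes fell in irradiated libraries, and for most of them the change differed from that in untreated ones. Among the 22 members of the B cell list, 18 fell (81.8%, against 30.6% of all genes) and 2 rose (9.1% against 35.3%). Of the falls, 16 were by more than 1 on the log2 scale (10.5% of all genes). The median of the list was -1.40. In untreated libraries 3 fell and 9 rose (median 0.37). The summed level of the list overlapped between the times, at 686 to 970 CPM and then 413 to 889 CPM, and held FCER2, given below, at 113 to 523 CPM over the 6 libraries. The interaction was called negative for 13 of 22, against 0.757% of all genes, and for 10 to 13 when 1 library was left out. MS4A1, the B cell surface antigen CD20 (ENSLAFG00000015517, scaffold 71, 9060073 to 9066418, minus strand), was at 23.1, 25.5 and 36.4 CPM at 5 h and at 5.31, 3.85 and 6.04 CPM at 24 h (-2.43 ± 0.22, adjusted p = 3.8e-05). Its untreated means rose from 51 to 82.3 CPM (0.73), and the interaction was -3.18 (adjusted p = 1.8e-04). CD79B, part of the B cell receptor complex (identifier ENSLAFG00000014432 on scaffold 31, 29707549 to 29710948, minus strand), fell from 28.7, 41.6 and 40 to 4.27, 5.01 and 6.7 CPM (-2.74 ± 0.20), while untreated means rose from 55.7 to 79.8 CPM (interaction -3.31, adjusted p = 2.9e-05). The complement receptor CR2 fell the most, from 25.9, 42 and 31.7 to 2.63, 2.01 and 3.15 CPM, 12.3 times lower in the fit (-3.62 ± 0.23). In these 3 genes every irradiated library of 24 h lies below every other library of the series.

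The fall covered B cell genes of several roles. Of the transcription factors, PAX5, which fixes B cell identity, went from 6.96, 8.43 and 8.11 to 1.41, 1.43 and 1.73 CPM (-2.31 ± 0.18), while EBF1 fell by 1.96 ± 0.29 and POU2AF1 by 1.28 ± 0.27. Of the surface receptors, the survival receptor TNFRSF13C fell by 2.78 ± 0.37, FCRL1 by 1.95 ± 0.16, FCRL5 by 1.76 ± 0.14 and CD22 by 0.79 ± 0.20. The immunoglobulin heavy chain row IGHM, outside the marker list and chosen after its values were seen, fell from 115, 151 and 144 to 69.7, 87.5 and 63.2 CPM (-0.84 ± 0.15), while untreated means rose from 223 to 325 CPM (interaction -1.44, adjusted p = 0.0071). Immunoglobulin genes are near-identical copies, so this value is uncertain. FAM129C, also outside the list, fell by 2.62 ± 0.19 (interaction -2.43), and the inhibitory receptor BTLA by 1.45 ± 0.22 (interaction -2.26). The 13 interaction calls include POU2AF1 (-1.81), CD79A (-1.55) and FCRL5 (-1.07), whose calls were lost when certain libraries were left out. POU2AF1 was lost without irradiated 5 h replicate 2 or 3, irradiated 24 h replicate 2 or untreated 24 h replicate 1 (adjusted p up to 0.063). CD79A was lost without those 4 or untreated 5 h replicate 1 or 3 or untreated 24 h replicate 3 (up to 0.076), and FCRL5 without irradiated 5 h replicate 3, irradiated 24 h replicate 2, untreated 5 h replicate 1 or 2, or untreated 24 h replicate 1 or 3 (up to 0.085).

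The 2 members of the B cell list that rose are known from myeloid cells as well. CD72 rose from 19.7, 18.1 and 30.7 to 97.5, 96.8 and 92.6 CPM (2.12 ± 0.19) and the adaptor BLNK from 4.53, 4.77 and 5.65 to 27.7, 24.2 and 21.2 CPM (2.35 ± 0.15), with untreated changes of 1.82 and 2.15. FCER2, the low-affinity IgE receptor, had 166, 139 and 345 CPM and then 523, 159 and 113 CPM (0.36 ± 0.56, adjusted p = 0.59). The groups of FCER2 overlap, and replicate 1 of 24 h is the highest of the 6 irradiated libraries. Among 6 plasma cell markers 5 rose (83.3%, against 35.3% of all genes) and 1, the regulator PRDM1, fell (-0.74 ± 0.11). In untreated libraries 4 of the 6 rose and 1 fell, and edgeR called the interaction in 0 of 6. The summed level of these markers did not rise. It was lower in every irradiated library of 24 h than in any of 5 h (193 to 230 CPM at 5 h). The chaperone MZB1 went from 2.18, 2.24 and 2.98 to 6.76, 7.88 and 8.02 CPM (1.67 ± 0.19).

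**Figure D5:**
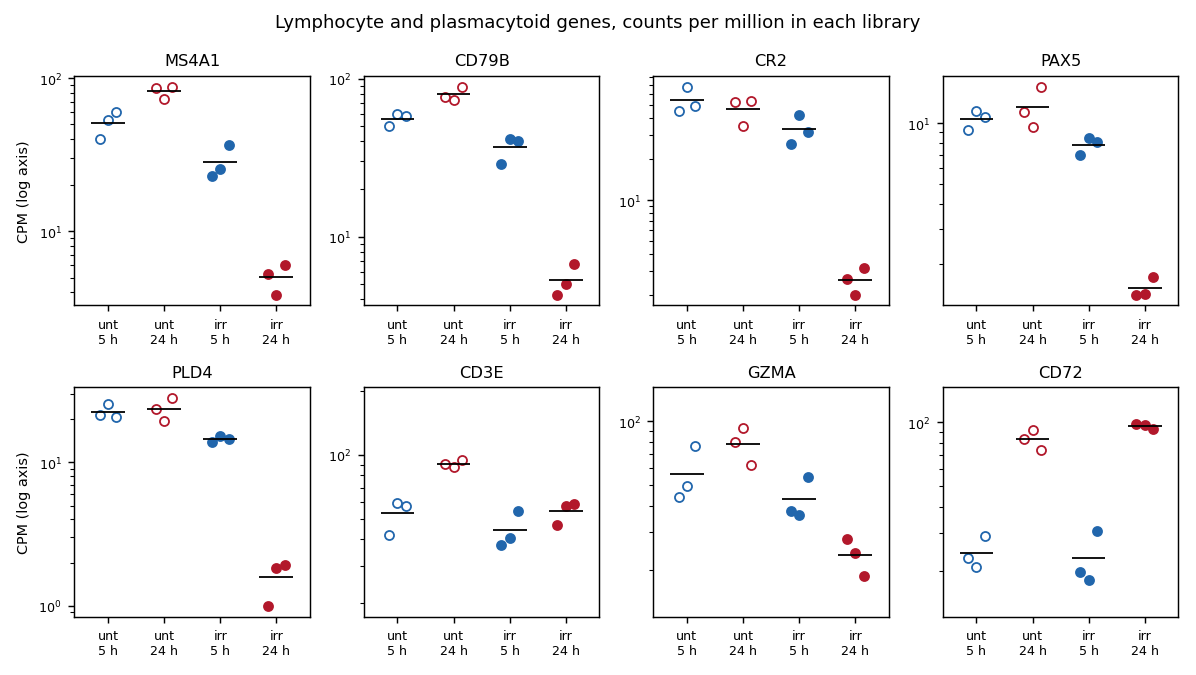
CPM on a log axis for the B cell genes MS4A1, CD79B, CR2, PAX5 and CD72, the plasmacytoid gene PLD4, the T cell gene CD3E and the cytotoxic gene GZMA in each untreated (open) and irradiated (filled) library at 5 h (blue) and 24 h (red), with bars at the group means. MS4A1 in irradiated libraries of 24 h lies between 3.85 and 6.04 CPM, below all other libraries, while CD72 rises in both kinds of library.

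Of 26 T cell markers, 7 rose and 4 fell (26.9% and 15.4%, against 35.3% and 30.6% of all genes; median 0.25; 0.38 in untreated libraries, where 12 rose and 1 fell). For the interaction edgeR called 0 of 26, against 3 at an unadjusted p below 0.05 and 1 by DESeq2. CD3E was at 37.8, 40.7 and 54.1 CPM and then 46.6, 57.3 and 58.8 CPM (0.35 ± 0.15, adjusted p = 0.071). The coreceptor CD4 rose from 5.47, 7.42 and 11.2 to 34.7, 15.7 and 14.4 CPM (1.49 ± 0.38), and CD8A fell from 20.4, 21.7 and 23.7 to 5.99, 9.45 and 12.8 CPM (-1.17 ± 0.24). Of 13 NK and cytotoxic markers, 2 rose (15.4%) and 4 fell (30.8%, near the 30.6% of all genes). The median was -0.16, against 0.51 in untreated libraries, where 7 rose and 1 fell. The protease GZMA fell from 37.9, 36 and 54.5 to 27.8, 24 and 18.7 CPM (-0.80 ± 0.20, adjusted p = 0.0065), with 56.5 and 78.3 CPM as untreated means. Its interaction was not called (-1.33, adjusted p = 0.098). For the list edgeR called 0 of 13, against 7 lower at an unadjusted p below 0.05 and 4 by DESeq2. Perforin (PRF1) had 73.8, 97.2 and 90.7 CPM and then 58.7, 85.1 and 111 CPM (0.02 ± 0.21).

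Of 14 dendritic cell markers tested, 6 rose and 4 fell (42.9% and 28.6%, near the 35.3% and 30.6% of all genes). Besides CD1C and CD1E, the growth factor receptor FLT3 rose from 57.8, 61.7 and 67.2 to 197, 154 and 159 CPM (1.51 ± 0.12), the actin bundler FSCN1 by 1.98 ± 0.18 and the tryptophan enzyme IDO1 by 3.42 ± 0.24. PLD4, an exonuclease of plasmacytoid dendritic cells and B cells (ENSLAFG00000010724, scaffold 9, 82485068 to 82492564, plus strand), fell from 14, 15.2 and 14.6 to 0.992, 1.84 and 1.93 CPM (-3.16 ± 0.23), with untreated means of 22.6 and 23.8 CPM (interaction -3.30, adjusted p = 9.6e-05). CLEC9A, the receptor of cross-presenting dendritic cells, fell from 1.33, 1.75 and 3.26 to 0.382, 0.179 and 0.0507 CPM (interaction -3.26, adjusted p = 0.038). That call was lost with the replicate block and without any library other than irradiated 5 h replicate 1, irradiated 24 h replicate 1 or untreated 24 h replicate 3 (adjusted p up to 0.12). The factor IRF8 was not called (102, 113 and 125, then 102, 98.9 and 111 CPM). Of 10 class II antigen presentation genes, 6 rose (60.0%), among them HLA-DPB1 (305, 314 and 439 to 1040, 604 and 603 CPM, 1.14 ± 0.24). The 1 that fell was HLA-DOA, a modulator of peptide loading known mainly from B cells (-0.98 ± 0.18, interaction -1.46, adjusted p = 0.0057). Genes of this family are similar in sequence, so reads may be split between them.

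Of 21 monocyte and macrophage markers 5 rose and 7 fell (23.8% and 33.3%, near or below the 35.3% and 30.6% of all genes; median 0.02). In untreated libraries 5 rose and 11 fell (median -0.27). Their summed level went from 5760 to 6900 CPM up to 7290 to 8250 CPM in irradiated libraries. In untreated ones it went from 5000 to 5920 CPM down to 4140 to 4920 CPM. For the interaction edgeR called 0 of 22, against 6 higher and 0 lower at an unadjusted p below 0.05 and 1 by DESeq2. The integrin ITGAX rose by 1.52 ± 0.12 and the complement subunit C1QA by 1.31 ± 0.13, while the costimulator CD86 fell from 241, 212 and 297 to 56, 37.1 and 33.7 CPM (-2.50 ± 0.21) and the adaptor TYROBP by 1.23 ± 0.10. The growth factor receptor CSF1R was not called (1340, 1390 and 867, then 1320, 1440 and 1510 CPM). CD163, the scavenger receptor for haemoglobin, had 1230 CPM in irradiated 24 h replicate 1 and 508 and 426 CPM in the other 2, against 456 to 488 CPM at 5 h (0.66 ± 0.35, adjusted p = 0.13). Of 15 neutrophil markers 6 fell (40.0%) and 1 rose (6.7%), with a median of -0.51. The formyl peptide receptor FPR1 fell by 1.50 ± 0.12. The water channel AQP9 fell by 1.52 ± 0.17, less than in untreated libraries (-3.20; interaction 1.67, adjusted p = 0.012). Platelet markers were called higher in 3 of 16 (18.8%) and lower in 1 (6.2%), and erythroid markers in 3 (23.1%) and 1 (7.7%) of 13. Their summed levels were lower at 24 h. Platelet markers summed to 285 to 402 CPM at 5 h and 172 to 254 CPM at 24 h in irradiated libraries. The erythroid sums were 489 to 795 CPM and then 211 to 260 CPM. The call of the platelet receptor CLEC1B was lost in all 11 alternatives that tested it (adjusted p up to 0.21). Of the 3 erythroid rises, of GATA1, ANK1 and RHAG, 0 kept a call without irradiated 5 h replicate 1. Only GATA1 kept it without irradiated 5 h replicate 3, without irradiated 24 h replicate 1 or with all 12 libraries in 1 fit. Only RHAG kept it without irradiated 24 h replicate 2. Of 19 stromal and endothelial markers 9 rose (47.4%) and 5 fell (26.3%), with a median of 0.90. COL1A1 and COL1A2 rose from below 0.4 to between 1.18 and 1.75 CPM, and PECAM1, which leukocytes and platelets also express, from 317, 320 and 305 to 925, 812 and 773 CPM (1.47 ± 0.11). The endothelial cadherin CDH5 fell from 4.08, 5.52 and 3.62 to 1.72, 1.07 and 1.17 CPM (interaction -1.76, adjusted p = 0.011). Whether these levels come from other cells was not tested.

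The 19 genes with a more positive change in irradiated libraries were mostly genes that fell less than without irradiation. In 13 of them both kinds of library fell, in 2 both rose, in 2 irradiated libraries rose and untreated ones were not called, and in 1, LPP, only the untreated fall was called. In 1, SULF2, they went in opposite directions. SULF2, which trims heparan sulfate, went from 3.04, 2.8 and 1.9 to 4.5, 6.13 and 5.43 CPM (1.11 ± 0.23), with untreated means of 2.24 and 0.646 CPM (interaction 2.87, adjusted p = 0.022). The interferon gamma gene IFNG went from 0.696, 0.709 and 0.829 to 4.62, 7.07 and 11 CPM (3.38 ± 0.34), with untreated means of 0.839 and 1.36 CPM (interaction 2.62, adjusted p = 0.036). CH25H, which makes 25-hydroxycholesterol, rose by 4.21 ± 0.22 against 2.78 in untreated libraries (interaction 1.42, adjusted p = 0.048). The gluconeogenic enzyme FBP1 fell by 2.93 ± 0.18 against -4.41 (interaction 1.47, adjusted p = 0.025), PHEX by 1.19 ± 0.20 against -2.89 (interaction 1.68) and LPP was not called in irradiated libraries (34.4, 33 and 31.6, then 32.5, 35 and 41 CPM) against -1.12 (interaction 1.29). The call of SULF2 was lost without irradiated 5 h replicate 2 or 3, irradiated 24 h replicate 2, untreated 5 h replicate 1 or 3, or untreated 24 h replicate 3 (adjusted p up to 0.068). That of FBP1 was lost without irradiated 5 h replicate 2, irradiated 24 h replicate 2, untreated 5 h replicate 1 or 2, or untreated 24 h replicate 1 or 3 (up to 0.074). IFNG kept its call without irradiated 24 h replicate 1, untreated 24 h replicate 2 or untreated 24 h replicate 3 and lost it without each of the other 9 libraries (up to 0.11). CH25H kept it without irradiated 5 h replicate 1, irradiated 24 h replicate 3 or untreated 5 h replicate 3 and lost it without each of the other 9 (up to 0.15).

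Among the 115 genes with a more negative change, 43 fell in irradiated and rose in untreated libraries, 42 fell and were not called in untreated, 14 fell in both, 12 were not called in irradiated and rose in untreated, and 4 rose in both. Outside the marker lists, the junction-associated AMOTL1 went from 26.5, 30.7 and 28.9 to 5.84, 5.51 and 6.24 CPM (-2.23 ± 0.12), while its untreated means rose from 15.1 to 21.7 CPM (interaction -2.82, adjusted p = 2.1e-06). The cyclic AMP sensor RAPGEF3 fell from 62.1, 77.1 and 67.7 to 8.59, 9.22 and 14.6 CPM (-2.63 ± 0.20; untreated 0.13; interaction -2.77). The lipid flippase ATP8B1 (interaction -2.95), the kinase MAST4 (-1.68) and DSEL (-1.40) also fell in irradiated and rose in untreated libraries. ATP8B1 lost its interaction call without irradiated 24 h replicate 2 (adjusted p = 0.051). The 3 irradiated libraries of 24 h lie below all other libraries in AMOTL1, as in MS4A1. Both genes were named by their interaction terms, which favours such a separation.

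Of 37 genes of double-strand break and Fanconi repair, 13 rose and 6 fell (35.1% and 16.2%, against 35.3% and 30.6% of all genes, so the share of rises is that of the background; median 0.25, and the same in untreated libraries). FANCI, a subunit of the Fanconi DNA clamp, rose from 33.9, 30.4 and 29.9 to 188, 153 and 152 CPM (2.44 ± 0.12; 2.20 in untreated), FANCA by 1.13 ± 0.17 and the checkpoint kinase CHEK2 by 1.05 ± 0.17. BARD1, the partner of BRCA1, fell by 0.37 ± 0.12 (adjusted p = 0.023), a call lost with the stricter filter, with thinning or without irradiated 5 h replicate 2 (up to 0.12). Its interaction was -0.68 (adjusted p = 0.045), but that call held in 4 of 18 alternatives only (adjusted p up to 0.16). Of 34 excision and mismatch repair genes 5 rose (14.7%) and 11 fell (32.4%), the falls including the abasic site nuclease APEX1 (-1.91 ± 0.14). Of 63 mitosis genes 24 rose and 6 fell (38.1% and 9.5%), with a median of 0.48. Their summed level was lower at 24 h, at 759 to 823 CPM and then 679 to 716 CPM. The anaphase activator CDC20 went from 5.35, 4.66 and 5.68 to 12, 22.1 and 33.6 CPM (2.16 ± 0.33) and cyclin B1 (CCNB1) from 7.49 to 7.68 CPM up to 10.9 to 21.4 CPM (1.13 ± 0.22). The proliferation marker MKI67 was at 0.203 to 0.611 CPM in all 6 libraries (-0.20 ± 0.39, adjusted p = 0.67). Of 54 replication genes 22 rose and 13 fell (40.7% and 24.1%). The summed level of the replication list was 1600 to 1670 CPM at 5 h and 1460 to 1550 CPM at 24 h. For the interaction edgeR called 0 of 64 mitosis genes (9 at an unadjusted p below 0.05, 1 by DESeq2) and 0 of 54 replication genes (7 lower at an unadjusted p below 0.05, 3 by DESeq2).

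Of 26 genes of matrix, proteases and remodelling, 7 rose and 11 fell (26.9% and 42.3%, against 35.3% and 30.6% of all genes; median -0.09; -0.64 in untreated libraries). The membrane protease MMP14 went from 151, 150 and 141 to 1490, 743 and 696 CPM (2.79 ± 0.29) and the inhibitor TIMP2 from 31.8, 34.7 and 25.8 to 156, 125 and 125 CPM (2.20 ± 0.15). The gelatinases fell, MMP2 from 25.3, 27 and 29.3 to 4.5, 3.89 and 3.6 CPM (-2.70 ± 0.14) and MMP9 from 1090, 1060 and 749 to 467, 185 and 169 CPM (-1.76 ± 0.38). For the interaction edgeR called 0 of 27, against 13 higher and 1 lower at an unadjusted p below 0.05 and 4 by DESeq2.

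Of 32 lymphocyte activation genes 9 rose and 4 fell (28.1% and 12.5%, against 35.3% and 30.6% of all genes; median 0.12). Besides IFNG, the growth factor CSF2 rose from 0.348, 0.149 and 0.706 to 5.53, 2.24 and 1.88 CPM (3.03 ± 0.57), while the interleukin receptor chain IL2RA fell from 19.5, 12.2 and 31.7 to 4.01, 3.54 and 3.2 CPM (-2.50 ± 0.33). IFNG was the 1 gene of the list called for the interaction.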

How the data were processed

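RNA of 12 elephant blood libraries was sequenced, 3 in each of 4 groups. The labels' protocols name a column RNA kit and a stranded kit with ribosomal depletion. The authors deposited 1 table per time with raw read counts, the input of every test, and FPKM values, which entered no test, per the file headers (assembly L_africana_Jul_2009). Another 12 columns of transformed values were not used. No source used here gives the aligner, the counter or the use of strand, so antisense overlaps cannot be separated. Coordinates are printed as deposited.

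Counts were joined by Ensembl identifier and tested with edgeR 4.0.16 in R 4.3.3 (TMM, filterByExpr with a minimum count of 10, quasi-likelihood F test, Benjamini-Hochberg adjusted p below 0.05). The irradiated and the untreated comparison each used their own 6 libraries, and the interaction all 12, with no block. Changes are log2 fold changes, positive when higher at 24 h, with SE taken as the change over the square root of F. The fits were checked on simulated data.

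Genes were named by rule. It took the 12 largest rises and falls (with a symbol, called, at 5 CPM or more on average, groups apart) and the 8 largest gains and losses of CPM. It also took the 8 largest interaction terms each way at 5 CPM or more, up to 6 genes each way called in opposite directions, up to 4 members of each of 36 lists by smallest p, and 13 fixed genes. Other genes named were chosen after their values were seen. The members and lists were chosen with earlier results of these data known. Alternatives were DESeq2 1.42.0, its size factors, no filter, a stricter filter (1 CPM in 3 libraries), 1 fit of all 12 libraries, a replicate block, thinning, and leaving out each library. Counts past a log2 change of 1 and at 5 CPM or more were added after seeing the data. Some items are not reported here.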

Additional observations from a re-analysis of the deposited data

Results flagged for a closer look

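The change from 5 h to 24 h differed between irradiated and untreated libraries, by the edgeR interaction test at an adjusted p below 0.05, for 19 genes in the positive and 115 in the negative direction. Log2 differences below are irradiated minus untreated. Among B cell genes they were -3.47 for CR2, -3.31 for CD79B, -3.18 for MS4A1, -3.03 for TNFRSF13C, -2.63 for FCRL1, -2.58 for FCRLA, -2.57 for PAX5, -2.33 for EBF1, -1.81 for POU2AF1, -1.55 for CD79A, -1.49 for CD22 and -1.07 for FCRL5. Outside that list they were -2.43 for FAM129C, -2.26 for BTLA and -1.44 for IGHM.

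Dendritic cell and class II genes differed by -3.30 (PLD4), -3.26 (CLEC9A) and -1.46 (HLA-DOA). The other negative differences of named genes were -2.95 for ATP8B1, -2.82 for AMOTL1, -2.77 for RAPGEF3, -1.76 for CDH5, -1.68 for MAST4, -1.40 for DSEL, -1.22 for TP53INP1, -1.19 for CXCR3, -0.68 for BARD1 and -0.58 for DDX21.

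Positive differences were 2.87 for SULF2, 2.62 for IFNG, 1.68 for PHEX, 1.67 for AQP9, 1.47 for FBP1, 1.42 for CH25H, 1.29 for LPP, 1.24 for CDKN1A, 1.16 for BCL2L1 and 1.13 for RFTN2. The call of RFTN2 was lost without 10 of the 12 libraries, namely all but irradiated 24 h replicate 1 and untreated 24 h replicate 2 (adjusted p up to 0.091).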

How the results depend on the processing

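The counts over all genes of the irradiated comparison (4956 higher, 4293 lower) were 4258 to 5058 higher and 3975 to 4882 lower when 1 library was left out, and 4672 and 4570 with DESeq2 size factors, which moved the median log2 change from 0.10 to 0.04. Among genes of at least 5 CPM, 2562 were higher. Untreated counts were 3429 to 4084 higher and 3790 to 4333 lower without 1 library. The interaction gave 4 to 51 positive and 72 to 117 negative calls without 1 library, 80 and 282 in DESeq2, and 32 positive calls with the stricter filter. The cause of these moves was not tested. In no setting was a gene called in the irradiated comparison called in the opposite direction. Of 7973 values of named genes recomputed, 163 lost and 51 gained a call and 0 reversed. Of 954 list counts, 78 moved by over 1.5 times.

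Replicate numbers were not taken as pairs, since the labels state no pairing. Deviations of replicates 1, 2 and 3 from their group means correlated between 5 h and 24 h at -0.1, 0.11 and -0.06 in irradiated libraries. In untreated libraries the values were 0.25, 0.15 and -0.33. Between untreated and irradiated libraries they correlated at 0.14, 0.10 and 0.34 at 5 h and at 0.14, -0.37 and 0.62 at 24 h. Not every library correlated best with its own number. Deviations from a mean of 3 libraries depend on each other, so these correlations cannot decide whether the numbers pair. With the replicate block 4772 genes were higher and 4116 lower in irradiated libraries, 4149 and 3952 in untreated ones, and the interaction gave 23 and 116. The irradiated libraries of 24 h were all shallower than those of 5 h, and with counts thinned to the smallest library 4495 genes were higher and 3930 lower. With 3 libraries a group of unstated origin, every error given is itself imprecise.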
